A study of Mus musculus with 8 samples.

Results

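The region described here is a stretch of mouse chromosome 3 upstream of the long noncoding RNA gene Sox2ot, read as contacts of a viewpoint at Sox2. It runs from 34150000 to 34560380 in mm10, covers 410.4 kb, and lies 88.4 to 498.8 kb upstream (towards lower coordinates) of the viewpoint centre at 34648817. Its members are the restriction fragments listed in the Sox2 tables with a midpoint in that stretch. There were 927 such fragments, of 24182 listed on chromosome 3 and 84255 listed on all chromosomes over the 8 libraries. The region was chosen from the Sox2 reads of these same libraries, so its levels are given as a description, and it had been proposed with the series' earlier results known.

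The assay reads ligated pairs of crosslinked chromatin fragments, so that the reads of a viewpoint count its contacts with fragments elsewhere. The series holds 8 libraries of mouse cells, 2 for each of 4 cell types, with no genetic change named in the labels. N2a is a mouse neuroblastoma cell line grown in serum. The neurons are cortical neurons made in culture from E14.5 neural stem cells, plated on poly-D-lysine in B27 medium. The NSC are those E14.5 cortical neural stem cells, grown with the growth factors bFGF and EGF. The ES cells are embryonic stem cells grown on gelatin in serum with leukemia inhibitory factor. The labels give culture conditions for replicate 1 only in neurons and NSC, name no strain, and leave it unsaid if replicates came from separate cultures.

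Sox2 encodes a transcription factor that keeps pluripotent cells and neural progenitors in an undifferentiated state. It lies inside Sox2ot, a long noncoding RNA gene transcribed in the same direction, and in ES cells its expression depends on an enhancer cluster well downstream, known as the Sox2 control region. Contacts of a promoter with distant DNA fall with distance and are shaped by domain boundaries, by the protein CTCF and by enhancers, which differ between pluripotent and neural cells.

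The working name of the stretch, a gene-free region, held for protein-coding genes but not for all genes. RefSeq annotates 6 genes within it on GRCm38.p6, the assembly of mm10, and they cover 22.4% of its bases. Of these, 5 are long noncoding RNA genes (Gm52623, Gm38505, Gm34599, Gm52624 and Gm20515) and 1 is the pseudogene Gm5708. There are 0 protein-coding genes. The nearest ones upstream are Dnajc19, for a protein of the mitochondrial inner membrane, ending at 34081354, and Fxr1, for an RNA-binding protein, ending at 34069980. Sox2ot starts at 34560381, the base after the region.

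Promoter sequences were at hand from RefSeq for 3 of the 6 genes, Gm52623 at chr3:34266696-34266995 (minus strand), Gm38505 at chr3:34351649-34351948 (minus strand) and Gm34599 at chr3:34411860-34412159 (plus strand). They are shown because they are annotated starts of transcription inside a stretch named as gene-free. Each has 250 bases before the start in lower case and the first 50 transcribed bases in capitals, 5′ to 3′.
Gm52623 promoter: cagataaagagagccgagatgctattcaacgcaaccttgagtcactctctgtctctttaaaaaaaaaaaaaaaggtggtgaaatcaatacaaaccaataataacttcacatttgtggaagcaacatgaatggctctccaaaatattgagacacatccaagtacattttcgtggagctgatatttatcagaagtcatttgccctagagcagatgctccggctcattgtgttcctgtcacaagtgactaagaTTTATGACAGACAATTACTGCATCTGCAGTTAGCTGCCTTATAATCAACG
Gm38505 promoter: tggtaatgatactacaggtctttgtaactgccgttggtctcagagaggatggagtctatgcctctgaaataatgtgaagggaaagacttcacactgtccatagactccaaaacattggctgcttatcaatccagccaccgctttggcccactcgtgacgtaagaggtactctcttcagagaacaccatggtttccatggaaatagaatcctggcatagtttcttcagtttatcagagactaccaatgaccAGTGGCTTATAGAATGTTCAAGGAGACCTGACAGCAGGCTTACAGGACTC
Gm34599 promoter: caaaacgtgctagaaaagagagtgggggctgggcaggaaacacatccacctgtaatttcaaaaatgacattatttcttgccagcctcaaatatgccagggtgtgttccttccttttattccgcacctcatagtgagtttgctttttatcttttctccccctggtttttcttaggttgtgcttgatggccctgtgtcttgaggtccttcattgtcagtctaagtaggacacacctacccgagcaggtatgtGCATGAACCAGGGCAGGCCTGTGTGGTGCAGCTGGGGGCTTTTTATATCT
All 1687 listed fragment starts that fell in any promoter of the table lay at the letters GATC, the cut site of the assay. None of the 3 promoters holds GATC, a sequence found in 48.0% of the 32851 promoters of the table, so each lies within 1 fragment. None holds, on either strand, a core of the CTCF motif, read as CCA, AG and GGC with 2 free bases between neighbours, against 2.43% of the table's promoters. The fragment over the Gm52623 promoter had 6 and 1 reads in N2a, 5 and 9 in neurons, 3 and 12 in NSC, and 17 and 3 in ES. For Gm38505 the fragment had 1 and 3 reads in N2a, 1 and 13 in neurons, 7 and 7 in NSC, and 13 and 2 in ES. The Gm34599 fragment had 38 and 1 reads in N2a, 15 and 16 in neurons, 3 and 16 in NSC, and 4 and 3 in ES. These counts are too small and too uneven between replicates to order the cell types at the promoters.

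The Sox2 tables listed 18150 to 137331 reads per library, of which 55.8% to 69.6% lay on chromosome 3. Values below are the percent of a library's chromosome 3 reads beyond 5 kb of the viewpoint centre, here called cis reads. The region itself held 1822 and 2763 listed reads in N2a, 6767 and 6001 in neurons, 1535 and 8589 in NSC, and 6481 and 3351 in ES. Adjacent fragments can share a read, so separate reads may be fewer. The listed counts were 1.96 (NSC replicate 1) to 3.58 (NSC replicate 2) times the fewest reads that could give them. Of its 927 fragments, 130 were listed in all 8 libraries and 20 in a single one. Fragments had a median length of 294 bases and together covered 97.6% of the region, so most of it could be read. The number listed was 455 and 587 in N2a, 761 and 719 in neurons, 427 and 836 in NSC, and 735 and 686 in ES.

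The region took 8.22% and 7.83% of cis reads in N2a, 17.9% and 20.9% in neurons, 15.9% and 18.5% in NSC, and 8.61% and 9.08% in ES. Neurons and NSC were high in both replicates, N2a and ES were low in both, and the high and low pairs did not overlap. The mean was 8.02% ± 0.281 in N2a, 19.4% ± 2.13 in neurons, 17.2% ± 1.79 in NSC and 8.85% ± 0.329 in ES (SD, n = 2 each). N2a held 0.413 times the share of neurons and 0.467 times that of NSC, while neurons held 2.19 times and NSC 1.94 times the share of ES. The neuron and NSC replicates overlapped. With 2 libraries against 2, a two-sided exact permutation test cannot go below p = 0.33, and none was run on this summed share, which the choice of the region used.

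**Figure D1:**
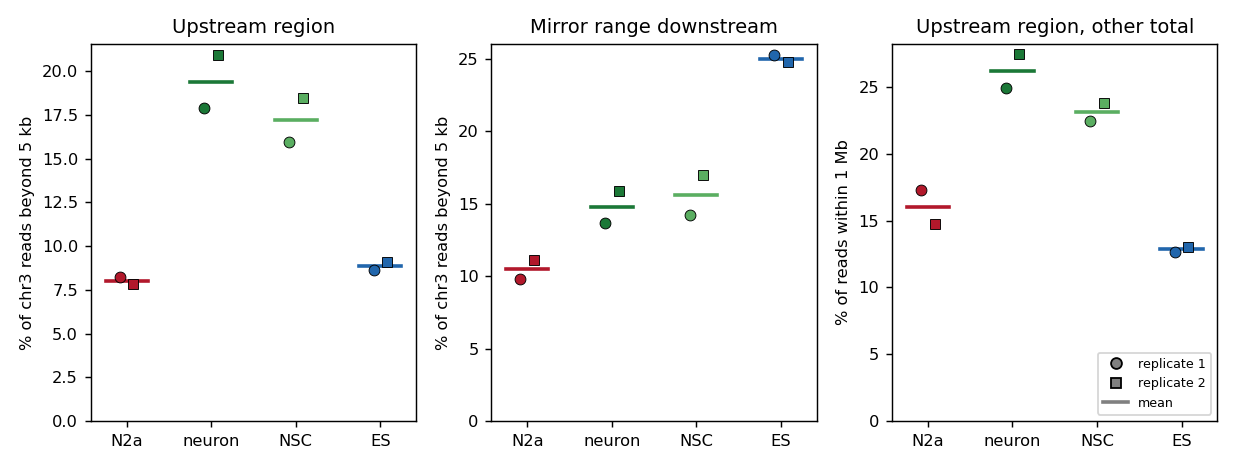
Percent of reads from the Sox2 viewpoint (y axes) for N2a, neuron, NSC and ES libraries (x axes), with circles for replicate 1, squares for replicate 2 and lines for means. On the left, the upstream region holds 15.9% to 20.9% of cis reads in neurons and NSC and 7.83% to 9.08% in N2a and ES, in the middle the mirror range downstream is highest in ES, and on the right, as a share of reads within 1 Mb, the region is higher in N2a than in ES.

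The low share in N2a and that in ES stood in different surroundings. Reads within 1 Mb of the viewpoint were 47.5% and 53.2% of cis reads in N2a, 71.9% and 76.1% in neurons, 70.8% and 77.5% in NSC, and 68.1% and 69.5% in ES, so N2a had fewer nearby reads as a whole. As a share of reads within 1 Mb, the region held 17.3% and 14.7% in N2a, 24.9% and 27.5% in neurons, 22.5% and 23.8% in NSC, and 12.6% and 13.1% in ES. On that total the order of N2a and ES turned round, with N2a at 1.25 times ES in place of 0.907 times, while neurons and NSC stayed above both.

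In ES the downstream side was high. The mirror range, 88.4 to 498.8 kb downstream, held 9.81% and 11.1% of cis reads in N2a, 13.6% and 15.9% in neurons, 14.2% and 17.0% in NSC, and 25.3% and 24.8% in ES. The ratio of the upstream region to this mirror range was 0.838 and 0.702 in N2a, 1.31 and 1.32 in neurons, 1.12 and 1.09 in NSC, and 0.341 and 0.367 in ES. The 4 cell types did not overlap in this ratio, and only neurons and NSC had more reads upstream than downstream. The stretch 100 to 120 kb downstream, where the Sox2 control region lies, held 3.82% and 4.08% of cis reads in ES and 0.516% to 1.05% in the other 6 libraries. Between the region and the viewpoint, N2a held 11.5% and 11.9% and the other libraries 6.76% to 8.23%, so the low share of N2a in the region did not extend towards Sox2.

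Within the region, neurons and NSC stood further above ES 400 to 350 kb upstream than next to Sox2ot. In the far segment from 400 to 350 kb upstream, N2a held 0.736% and 0.643%, neurons 2.92% and 3.66%, NSC 3.07% and 3.26%, and ES 1.10% and 0.859% of cis reads. Neurons held 3.36 times and NSC 3.24 times the mean share of ES there, and N2a 0.210 times that of neurons. In the segment nearest to Sox2ot, 150 to 90 kb upstream, N2a held 1.36% and 2.16%, neurons 1.98% and 2.78%, NSC 1.68% and 2.31%, and ES 1.58% and 1.68%. In that near segment N2a overlapped with each of the others, neurons overlapped with NSC, and NSC and ES met at 1.68%. The neuron share was 1.46 times and the NSC share 1.23 times that of ES.

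The far part, 500 to 290 kb upstream, held 2.78% and 2.45% of cis reads in N2a, 9.49% and 10.2% in neurons, 8.83% and 8.83% in NSC, and 3.66% and 3.46% in ES. The near part, 290 to 90 kb upstream, held 5.40% and 5.35% in N2a, 8.48% and 10.8% in neurons, 7.07% and 9.58% in NSC, and 5.01% and 5.64% in ES. In both parts neurons and NSC lay above N2a and ES with no overlap. The mean of neurons was 2.76 times that of ES in the far part and 1.81 times in the near part. The distance from the viewpoint within which 50% of the region's reads lay was 240 and 230 kb in N2a, 310 and 280 kb in neurons, 305 and 280 kb in NSC, and 240 and 235 kb in ES.

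**Figure D2:**
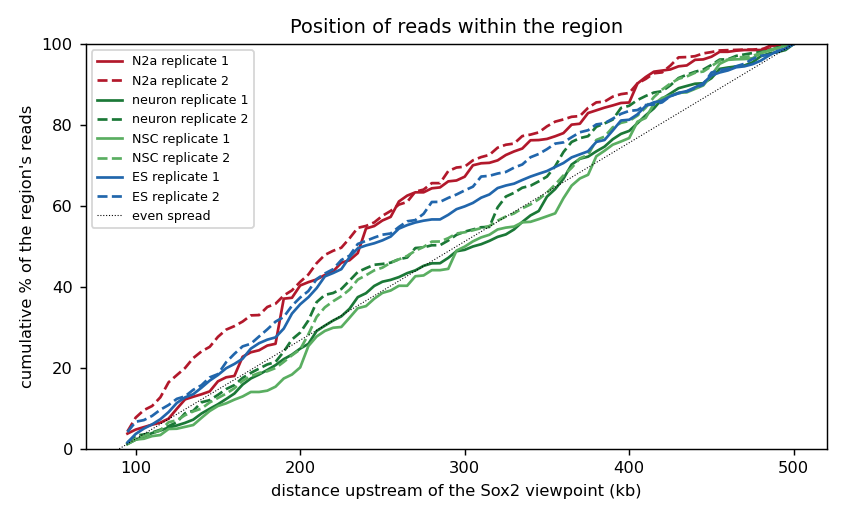
Cumulative percent of the region's reads (y axis) against the distance upstream of the Sox2 viewpoint in kb (x axis), 1 line per library, solid for replicate 1 and dashed for replicate 2, with an even spread dotted. N2a and ES libraries reach 50% by 230 to 240 kb, and neuron and NSC libraries by 280 to 310 kb.

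Among the segments, the ratio of neurons to NSC was highest from 350 to 300 kb upstream, which lies within Gm38505. That segment held 0.763% and 0.776% of cis reads in N2a, 2.36% and 2.84% in neurons, 1.19% and 1.80% in NSC, and 0.756% and 0.927% in ES. The neuron mean was 1.74 times the NSC mean, and the pairs did not overlap. Nor did they overlap from 200 to 150 kb upstream, with neurons higher, or from 450 to 400 kb, with NSC higher. From 250 to 200 kb upstream, where Gm34599, Gm52624 and Gm20515 lie, N2a held 1.31% and 1.27%, neurons 2.97% and 3.54%, NSC 2.93% and 3.72%, and ES 1.37% and 1.41%. Neurons and NSC overlapped in that segment and both lay above N2a and ES.

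**Figure D3:**
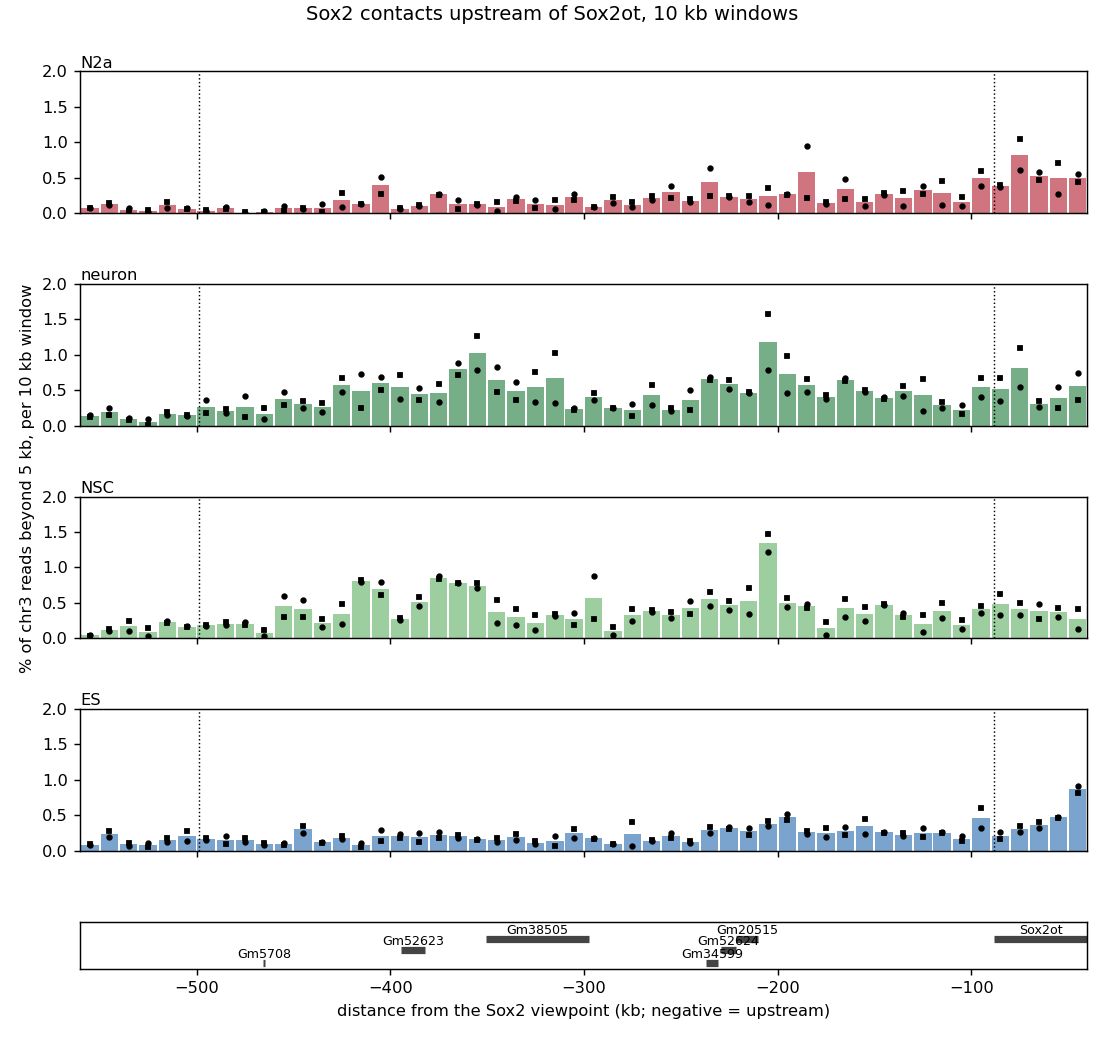
Percent of cis reads per 10 kb window (y axis) against the distance from the Sox2 viewpoint in kb (x axis) for N2a, neuron, NSC and ES, where bars are means, circles and squares are replicates 1 and 2, dotted lines mark the ends of the region, and the lowest strip shows the annotated genes. Neuron and NSC bars are high between 420 and 340 kb and between 240 and 180 kb upstream, where N2a and ES bars stay low apart from single high replicates in N2a.

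At each of the annotated long noncoding RNA genes the means of neurons and NSC lay above those of N2a and ES. How far the replicates overlapped differed between the genes. Gm38505, a long noncoding RNA gene of 53526 bases from 34298173 to 34351698, held 0.772% and 0.790% of cis reads in N2a, 2.41% and 2.98% in neurons, 1.21% and 1.85% in NSC, and 0.801% and 0.937% in ES. Neurons lay above all other libraries there. Gm52623, a long noncoding RNA gene from 34254418 to 34266745, held 0.126% and 0.150% in N2a, 0.627% and 0.728% in neurons, 0.446% and 0.662% in NSC, and 0.432% and 0.211% in ES. N2a was below the other 6 libraries.

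Gm20515, a long noncoding RNA gene from 34427371 to 34438840, held 0.167% and 0.246% in N2a, 0.484% and 0.491% in neurons, 0.353% and 0.755% in NSC, and 0.351% and 0.295% in ES. Gm52624, from 34419612 to 34427561, overlaps it by its annotated ends and held 0.212% and 0.170% in N2a, 0.423% and 0.519% in neurons, 0.280% and 0.454% in NSC, and 0.182% and 0.228% in ES. For both genes neurons lay above N2a and ES in both replicates. Gm34599, from 34412110 to 34418162, overlapped between N2a, neurons and NSC, since N2a held 0.460% and 0.167%, neurons 0.500% and 0.369%, NSC 0.394% and 0.430%, and ES 0.166% and 0.284%. The pseudogene Gm5708, of 869 bases, held at most 0.007% in any library. These are shares of contacts and say nothing of the genes' transcription, which was not measured.

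Reads inside the annotated genes were 21.1% and 19.5% of the region's reads in N2a, 24.8% and 24.4% in neurons, 16.9% and 22.5% in NSC, and 22.4% and 21.5% in ES, around the 22.4% of bases that the genes cover. Outside the genes the region still held 6.49% and 6.30% of cis reads in N2a, 13.5% and 15.8% in neurons, 13.2% and 14.3% in NSC, and 6.68% and 7.12% in ES. The order of the cell types was that of the whole region.

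Reads were then summed in 5 kb windows within 1 Mb of the viewpoint, and 366 windows were fitted together with edgeR's quasi-likelihood model. The region spans 82 windows, of which 81 passed the filter on low counts. The choice of the region used the Sox2 reads of all 8 libraries, N2a and neurons included, so every count of called windows below describes the region and is no independent test of it. In N2a, 20 of the 81 region windows were lower than in neurons and 0 were higher at an adjusted p under 0.05 (edgeR, Benjamini-Hochberg over the 366 windows). Over all 366 windows, 12.3% were called in either direction, 11.7% as lower and 0.546% as higher. Outside the region 25 of 285 windows were called, and nothing is read from the difference.

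The N2a windows were low far beyond the region. The median log2 change of N2a over neurons was -1.47 in the region, -0.71 outside it and -0.92 over all windows, and 71 of the 81 region windows had a value below 0. When TMM factors set the median of all windows to 0.01, the region's median was -0.53 and 1 of its windows was called, against 3.01% of all windows. With reads within 1 Mb as the total, 7 region windows were called, against 4.64% of all windows. The count also fell to 8 without neuron replicate 1, to 4 without neuron replicate 2 and to 10 without N2a replicate 1, against 4.74%, 1.84% and 7.12% of all windows in those fits.

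**Figure D4:**
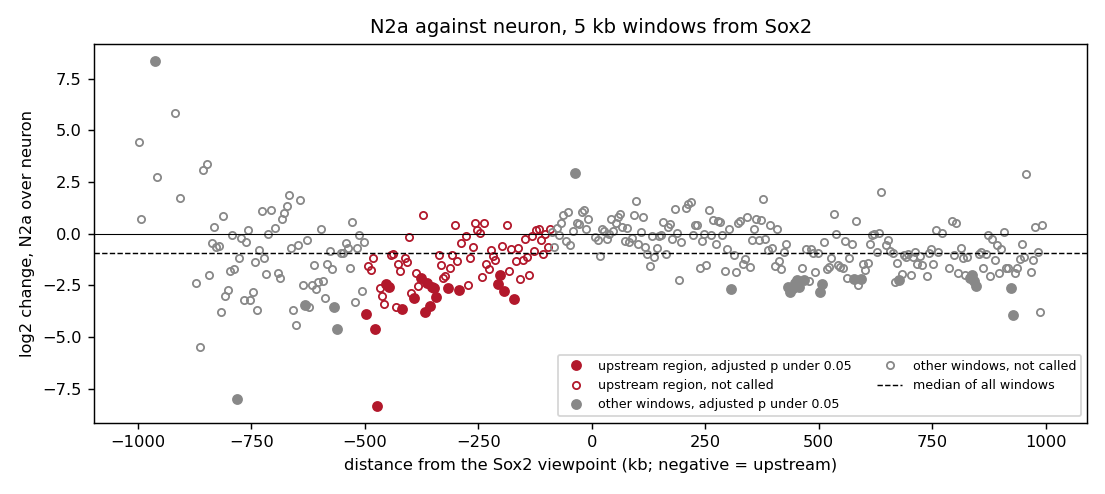
Log2 change of N2a over neurons in 5 kb windows (y axis) against the distance from the Sox2 viewpoint in kb (x axis), with the region's windows in red, the others in grey, filled points at an adjusted p under 0.05, and the median of all windows, -0.92, dashed. The 20 filled red points all lie below 0, and 16 of them lie between 500 and 290 kb upstream. Of all 366 windows, 11.7% were called as lower.

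In the far part 16 of 42 windows (38.1%) were called as lower in N2a, with a median log2 change of -2.28. In the near part it was 4 of 39 (10.3%), with a median of -0.77. Over all 366 windows 11.7% were called as lower, so the near part was close to that share. Windows that overlap an annotated gene were called as lower in 6 of 24 cases and the others in 14 of 57, against the same 11.7%. Without regard to any test, both N2a libraries lay below both neuron libraries in 53 of the 81 region windows, and above both in 1. The same shares over all 366 windows were 46.2% lower and 7.65% higher.

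Single windows show how far the libraries of a cell type differ among themselves. The window from 360 to 355 kb upstream (34288817 to 34293816), which lies 4.36 kb from Gm38505, held 0.0632% and 0.0425% of cis reads in N2a, 0.455% and 0.728% in neurons, 0.592% and 0.413% in NSC, and 0.0837% and 0.0271% in ES. The neuron and NSC libraries overlapped each other, as did N2a and ES, with a gap between the pairs. For all windows the SE was back-calculated, as the size of the log2 change divided by the square root of the quasi-likelihood F statistic. N2a was lower than neurons by a log2 change of -3.49 ± 0.75 (SE), and this window alone was also called with TMM factors. It was not called without neuron replicate 2, at -3.11. The log2 change was 3.37 ± 0.73 for neurons over ES and 3.13 ± 0.73 for NSC over ES.

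From 370 to 365 kb upstream (34278817 to 34283816), N2a held 0.0181% and 0.0142%, neurons 0.257% and 0.195%, NSC 0.280% and 0.430%, and ES 0.0651% and 0.111%. N2a rested on 4 and 5 listed reads, and the order of the cell types was N2a, ES, neurons and NSC with no overlap. N2a was lower than neurons by -3.80 ± 0.96, a call lost with TMM factors at -2.86. From 380 to 375 kb upstream, 2.07 kb beyond the start of Gm52623, N2a held 0.0542% and 0.105%, neurons 0.236% and 0.488%, NSC 0.727% and 0.682%, and ES 0.201% and 0.130%. NSC were the highest libraries and N2a the lowest. N2a was lower than neurons by -2.16 ± 0.69, which was not called without N2a replicate 1 (-1.78) or without neuron replicate 2 (-1.55).

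A pair of neighbouring windows between 420 and 410 kb upstream (34228817 to 34238816) lay in unannotated DNA. In the outer one N2a held 0.0226% and 0.0170%, neurons 0.423% and 0.0697%, NSC 0.239% and 0.344%, and ES 0.0359% and 0.0488%. Neuron replicate 1 stood far above neuron replicate 2 there, so that the neuron level was decided by 1 library. N2a was lower than neurons by -3.64 ± 0.98, against -1.81 and no call without neuron replicate 1. In the inner one N2a held 0.108% and 0.110%, neurons 0.307% and 0.178%, NSC 0.550% and 0.479%, and ES 0.0757% and 0.0108%. NSC lay highest and ES lowest, with a log2 change of 3.50 ± 0.81 for NSC over ES, and N2a over neurons was not called (-1.15 ± 0.76).

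From 295 to 290 kb upstream (34353817 to 34358816), 2.12 kb beyond the start of Gm38505, N2a held 0.0181% and 0.0680%, neurons 0.294% and 0.293%, NSC 0.716% and 0.211%, and ES 0.121% and 0.0759%. The NSC replicates lay on either side of the neurons. N2a was lower than neurons by -2.71 ± 0.81, and the call was lost without N2a replicate 1 (-2.10), neuron replicate 1 (-2.71) or neuron replicate 2 (-2.72).

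The window from 210 to 205 kb upstream (34438817 to 34443816), which enters the annotated end of Gm20515, held 0.0542% and 0.218% in N2a, 0.574% and 0.944% in neurons, 0.374% and 0.787% in NSC, and 0.194% and 0.268% in ES. Its neighbour from 205 to 200 kb held 0.0677% and 0.142% in N2a, 0.209% and 0.627% in neurons, 0.841% and 0.690% in NSC, and 0.152% and 0.146% in ES. In both windows neurons and NSC lay above N2a, and ES did not overlap with neurons or NSC. N2a was lower than neurons by -2.45 ± 0.63 in the outer and by -1.97 ± 0.66 in the inner window. Neither was called without neuron replicate 2, at -2.05 and -0.98, or without N2a replicate 1, at -1.80 and -1.56.

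The window from 190 to 185 kb upstream ran against the region's pattern in 1 library. It held 0.912% and 0.159% in N2a, 0.267% and 0.533% in neurons, 0.322% and 0.280% in NSC, and 0.187% and 0.106% in ES. N2a replicate 1 was the highest of the 8 libraries and N2a replicate 2 the second lowest. N2a over neurons was not called (0.41 ± 0.64), and the value was -1.33 without N2a replicate 1. The 8 windows with the most reads held 40.1% of the region's reads in N2a replicate 1 and 21.5% to 31.5% in the other 7 libraries.

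A called window, from 475 to 470 kb upstream, had 0 reads in both N2a libraries and 54 and 21 in neurons. Taking 3 listed reads per library as the limit that a count of 0 allows, the bound for N2a was 9.8-fold below the neuron mean. That limit takes listed reads as independent. In the region they were 2.21 and 2.68 times the fewest possible reads in N2a, so a limit in separate reads would be looser. The bound also takes the neuron mean as exact, though the neuron libraries were at 0.143% and 0.0732% of cis reads. With that window at its bound the region's median log2 change stayed at -1.47, which was certain, since the bound lies below that median. At the outer edge, the last window inside, from 500 to 495 kb upstream, held 0% and 0.0255% in N2a, 0.267% and 0.146% in neurons, 0.0623% and 0.0559% in NSC, and 0.101% and 0.0975% in ES. The first window outside held 0.0496% and 0.0538% in N2a, 0.0741% and 0.0627% in neurons, 0.0830% and 0.0860% in NSC, and 0.0904% and 0.144% in ES. Neurons stood out inside that edge, and outside it ES were highest. The call of the inside window, at a log2 change of -3.86 ± 1.18 for N2a over neurons, was lost without N2a replicate 1 (-3.01), neuron replicate 1 (-3.38) or neuron replicate 2 (-4.24).

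At the Sox2ot edge, the last window inside, from 95 to 90 kb upstream, held 0.307% and 0.334% in N2a, 0.212% and 0.328% in neurons, 0.187% and 0.252% in NSC, and 0.134% and 0.377% in ES. The window from 90 to 85 kb, which enters Sox2ot, held 0.131% and 0.130% in N2a, 0.0688% and 0.181% in neurons, 0.104% and 0.142% in NSC, and 0.0824% and 0.0786% in ES. Inside this edge N2a lay above NSC, in the window beyond it ES lay below N2a and NSC, and the other pairs of cell types overlapped.

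The other 5 contrasts are given as a description in the same way. N2a against NSC had 12 region windows called, all lower, against 9.29% of all windows lower and 10.1% in either direction, and a median log2 change of -1.26 in the region and -0.86 over all windows. Without NSC replicate 1 the count was 7, against 5.25% of all windows. Both N2a libraries lay below both NSC libraries in 47 of 81 region windows, against 43.2% of all windows, and above both in 4, against 8.20%. N2a against ES had 3, all lower, against 6.56% of all windows lower and 6.83% in either direction, with medians of -0.44 and -0.63, so the region was not low in N2a beyond the other windows in that contrast. With TMM factors these medians were 0.26 and 0.05, so the sign of N2a over ES in the region depended on the scaling. The calls turned as well, with 0 region windows lower and 3 higher under TMM factors (2.19% of all windows called), 0 lower and 3 higher under DESeq2 size factors (3.01%), and 0 lower and 2 higher with reads within 1 Mb as the total (2.19%). Both N2a libraries lay below both ES libraries in 26 region windows, against 41.3%, and above both in 10, against 7.38%. With N2a replicate 1 left out, 0 region windows were called (0.528% of all windows called). The count was also 0 when neuron replicate 1 (3.42%), ES replicate 1 (0.265%) or ES replicate 2 (0%) was dropped. Dropping neuron replicate 2 left 1 call (4.20%), and dropping N2a replicate 2 gave 7, of which 4 were lower and 3 higher (10.1%). For neurons against NSC 0 of 81 windows were called by edgeR, 0 by DESeq2 and 0 at an unadjusted p under 0.05, against 0% of all windows called and 3.55% at an unadjusted p under 0.05. Neurons lay above NSC without overlap in 14 region windows, against 15.6% of all windows, and below in 10, against 13.4%. The log2 changes of neurons over NSC ran from -1.32 to 1.99 with a median of 0.21.

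Neurons against ES had 4 region windows called, all higher, against 1.09% of all windows higher and 2.19% in either direction, and a median log2 change of 0.92 in the region and 0.29 over all windows. NSC against ES had 5, all higher, against 1.91% of all windows higher and 2.46% in either direction, with medians of 0.82 and 0.15. In neurons both libraries lay above both ES libraries in 46 of 81 region windows, against 30.6% of all windows, and below both in 0, against 21.0%. In NSC the counts were 40 above, against 25.7%, and 3 below, against 23.5%. In these libraries the higher reads in neurons and NSC lay in many windows, few of which were called alone. The choice of the region used these reads, so an excess of windows above ES was built in. Both counts of called windows changed with single libraries. Neurons against ES had 0 region windows called without neuron replicate 2 (0.787% of all windows called) or ES replicate 2 (0.531%). It had 2 when neuron replicate 1 was dropped (0.789%), 13 when N2a replicate 1 was dropped (5.28%) and 12 when N2a replicate 2 was dropped (4.80%). NSC against ES had 0 without NSC replicate 1 (0% of all windows called) or ES replicate 2 (0.265%), and 3 without ES replicate 1 (1.06%), neuron replicate 1 (2.11%) or neuron replicate 2 (2.10%). It had 9 without N2a replicate 1 (4.22%) or N2a replicate 2 (4.80%).

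The order of the region's windows by share was compared between libraries with Spearman's rho over its 82 windows, as a description, since neighbouring windows and libraries share fragments and depth. Replicates of a cell type had a mean rho of 0.505, from 0.429 to 0.601. Pairs of a neuron and an NSC library had a mean of 0.552, from 0.414 to 0.669. The means of the other pairs were lower, at 0.298 for N2a and neurons (0.155 to 0.484) and 0.305 for N2a and NSC (0.191 to 0.411). They were 0.323 for N2a and ES (0.146 to 0.535), 0.351 for neurons and ES (0.228 to 0.578) and 0.279 for NSC and ES (0.041 to 0.443). In 10 kb windows the mean was 0.516 for replicates, 0.510 for neurons and NSC, and 0.466 for N2a and ES. The remaining pairs had means of 0.242 to 0.334 there, so the order of the pairs changed with window size.

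The same distances were read at the other viewpoints to set the Sox2 values beside other loci. Between 88.4 and 498.8 kb upstream of the Paupar viewpoint next to Pax6, cis shares were 5.69% and 5.77% in N2a, 11.9% and 9.78% in neurons, 9.45% and 9.82% in NSC, and 10.8% and 11.8% in ES. N2a was low there too, at 0.529 times the neuron mean, while neurons and ES overlapped, at a ratio of 0.955. At the 2 Pax6 promoter viewpoints the ratio of neurons to ES was 0.947 and 0.974 and that of N2a to neurons 0.499 and 0.426. At Pou3f3, a gene for a neural transcription factor, N2a held 11.8% and 16.8% and the other libraries 11.6% to 14.0%. Neurons, at 12.7% and 14.0%, lay just above ES, at 12.6% and 12.4%, with a ratio of means of 1.06. The ratio of neurons to ES at this distance, 2.19 at Sox2, was thus 0.947 to 1.06 at the other 4 viewpoints. The low share of N2a was also seen at the 3 Pax6-locus viewpoints. Those 3 are centred between 105661400 and 105675114 on chromosome 2, so they read nearly the same DNA and are not separate loci. The difference between viewpoints was not tested.

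**Figure D5:**
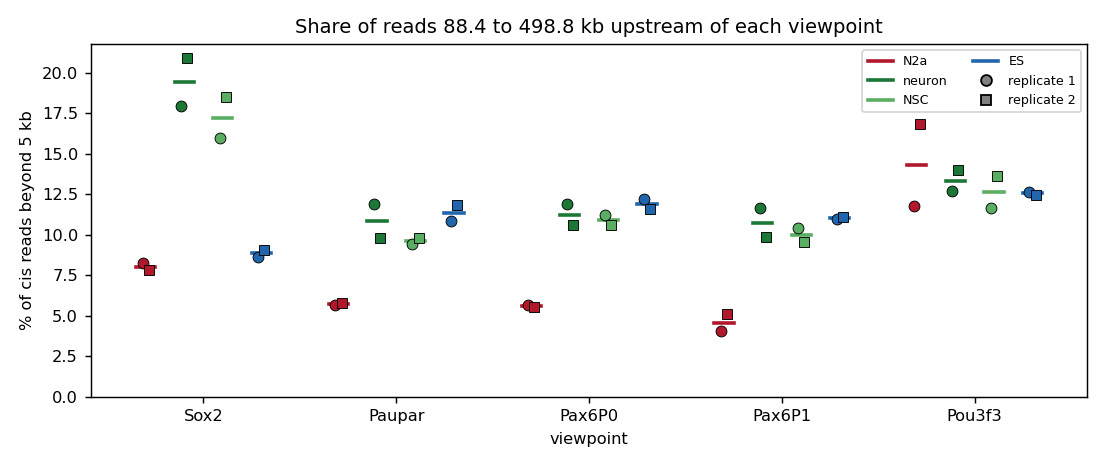
Percent of cis reads (y axis) 88.4 to 498.8 kb upstream of each of the 5 viewpoints (x axis) for N2a, neuron, NSC and ES, with circles for replicate 1, squares for replicate 2 and lines for means. At Sox2 neurons and NSC lie above N2a and ES, and at the 3 Pax6-locus viewpoints N2a lies below the other cell types. At Pou3f3 the cell types overlap, except that neurons lie just above ES.

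The region was also read in the tables of the 4 other viewpoints, where it lies on another chromosome. Summed over those tables it held 2 and 5 reads in N2a, 36 and 36 in neurons, 14 and 20 in NSC, and 18 and 9 in ES. Counted as the fewest reads that could give these values, since adjacent fragments can share a read, they were 1 and 4 in N2a, 15 and 22 in neurons, 6 and 10 in NSC, and 10 and 5 in ES. The exact 95% Poisson intervals, which cover counting error only, ran from 0.0253 to 5.57 and 1.09 to 10.2 in N2a, 8.40 to 24.7 and 13.8 to 33.3 in neurons, 2.20 to 13.1 and 4.80 to 18.4 in NSC, and 4.80 to 18.4 and 1.62 to 11.7 in ES.

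Against the mean density of chromosome 3 reads beyond 1 Mb, the region's level in those tables was 0.113 and 0.358 times in N2a, 1.72 and 2.91 times in neurons, 1.99 and 1.42 times in NSC, and 0.605 and 0.917 times in ES. Neurons and NSC lay above N2a and ES, as in the Sox2 tables. The counting intervals, however, are of reads not scaled for depth, and many of them overlapped. Those of both neuron and both NSC libraries overlapped with that of ES replicate 1. Those of neuron replicate 1 and both NSC libraries overlapped with that of ES replicate 2. The intervals of both N2a libraries overlapped with both NSC libraries, and that of N2a replicate 2 with neuron replicate 1. Within 5 kb of the Sox2 viewpoint the same tables held 40 and 37 reads in N2a, 6 and 15 in neurons, 8 and 25 in NSC, and 34 and 8 in ES. Whether reads of Sox2 ligation products entered these tables was not tested.

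The authors' own calls in the region varied between replicates. At a q value under 0.05 in the authors' tables, the region held 5 of 77 and 0 of 48 called cis fragments in N2a, 4 of 42 and 9 of 37 in neurons, 3 of 15 and 1 of 36 in NSC, and 2 of 68 and 0 of 64 in ES. In counts of listed reads, tested windows had a median of 37 per library and the spread between replicates was 58.8% as a coefficient of variation. Simulated data of the N2a against neuron contrast had 366 windows. Of these, 1 of 35 windows lowered 2-fold, 3 of 32 lowered 4-fold and 13 of 33 lowered 8-fold were called. Most 4-fold changes of a single window thus went undetected in the simulation. It raised and lowered windows alike and gave all of them 1 dispersion, unlike the data, so its rates need not hold there.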

How the data were processed

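The labels name mouse genomic DNA from 8 libraries in 4 cell types, each with tables for 5 viewpoints, 40 in all. The submitters' processing notes name Trim Galore, Bowtie and mm10. Their versions, the enzyme, the interaction caller and duplicate removal were not given in the sources used here. As deposited, the read column holds counts per restriction fragment, from 1 read upwards. The authors' RPMs column holds a signal, in each Sox2 table a power of the reads with an exponent of 1.27 to 2.78, and was not used otherwise. The authors also deposited a z score, left unused. The authors' p-value and q-value columns are per fragment and table, and only the q-values were used.

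Counts were summed in 5 kb windows on a grid from the viewpoint centre, within 1 Mb and beyond 5 kb. Library size was chromosome 3 reads beyond 5 kb, with no scaling factor. Windows passing filterByExpr at a minimum count of 10 were fitted with edgeR 4.0.16 (glmQLFit, robust, R 4.3.3), with all 8 libraries and 1 coefficient per cell type. Benjamini-Hochberg adjustment ran over 366 windows, with a threshold of 0.05. Common dispersion was 0.345. DESeq2 1.42.0 and other totals, window sizes, filters and left-out libraries were alternatives. The code was tested on simulated data, in which 0 of 166 unchanged windows were called.

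Named windows were those of the region with the smallest p over all cell types (8), the smallest p in N2a against neurons (4), the largest mean share (4), and those at each end. The region, its windows and the genes were chosen with earlier results of these data known. N2a against neurons had been designed as a test, but the region's choice used reads of all 8 libraries, so it is given as a description with no p-value per window. No molecular identifiers are given, so intervals cover counting error only. No replicate is labelled as a separate culture, so p-values measure the spread between these libraries, which may be technical. Sequence of single windows was not analysed here.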

Additional observations from a re-analysis of the deposited data

How the results depend on the processing

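The region's mean share as a percent of reads within 1 Mb was 16.02 in N2a, 26.2 in neurons, 23.2 in NSC and 12.9 in ES, and of all listed reads 4.79, 11.2, 10.0 and 5.10. With 20 kb left out on either side of the viewpoint it was 8.96 in N2a and 9.46 in ES. The single libraries were then at 20.0 and 22.8 in neurons and 17.5 and 20.2 in NSC. Counting the fewest reads in each run of fragments, the mean was 7.45 in N2a. The single libraries were then at 15.2 and 19.5 in neurons, 15.6 and 17.0 in NSC, and 8.33 and 8.98 in ES. Leaving out either library gave 7.83 to 8.22 in N2a, 17.9 to 20.9 in neurons, 15.9 to 18.5 in NSC and 8.61 to 9.08 in ES.

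Counts of called region windows follow, each with the percent of all windows called in the same fit in parentheses. For N2a against neurons, 20 of 81 (12.3%) became 1 with TMM factors (3.01%), 1 with size factors of DESeq2 (3.83%), both of which remove the shift of all windows, 7 with reads within 1 Mb as the total (4.64%), 11 of 80 with the fewest reads (7.93%), 6 of 187 windows of 2 kb (2.66%) and 11 of 21 windows of 20 kb (34.0%). All of the calls on 5 kb windows under these alternatives were among the 20. DESeq2's test called 26 (17.5%), holding all 20. Leaving out 1 library gave 4 to 21 (1.84% to 13.3%).

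For N2a against NSC, 12 (10.1%) became 5 of 187 with 2 kb windows (3.04%), 6 with TMM factors (6.56%), 7 with reads within 1 Mb (5.74%), 7 of 80 with the fewest reads (5.18%), 6 of 77 with only those groups fitted (3.76%), 19 by DESeq2 (16.4%), and 7 to 15 with 1 library left out (5.25% to 12.0%). For N2a against ES, 3 lower (6.83%) became 3 higher with TMM factors (2.19%), 3 higher with DESeq2 size factors (3.01%) and 2 higher with reads within 1 Mb (2.19%). It became 0 of 187 with 2 kb windows (0.380%), 0 of 79 with only those groups (2.05%), 1 of 41 with 10 kb windows (9.14%), 1 with all listed reads (2.47%), 1 of 82 with no filter on low counts (5.54%), 1 of 80 with the fewest reads (2.74%), 8 within 500 kb, 6 lower and 2 higher (14.8%), and 0 to 7 with 1 library left out (0% to 10.1%).

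For neurons against ES, 4 (2.19%) became 0 of 187 with 2 kb windows (0.253%), 7 of 41 with 10 kb windows (6.09%), 7 of 21 with 20 kb windows (17.0%), 1 with TMM factors (1.64%), 1 with DESeq2 size factors (1.37%), 1 with all listed reads (1.10%), 1 of 80 with the fewest reads (0.610%), 15 by DESeq2 (7.10%), 11 within 500 kb (8.16%), 16 with only those groups (8.73%), and 0 to 13 with 1 library left out (0.531% to 5.28%). For NSC against ES, 5 (2.46%) became 0 of 187 with 2 kb windows (0.253%), 10 by DESeq2 (5.74%), 8 within 500 kb (6.12%), 1 of 80 with the fewest reads (0.610%), 1 of 80 with only those groups (1.42%), and 0 to 9 with 1 library left out (0% to 4.80%). Neurons against NSC stayed at 0 region windows under all alternatives run (0% to 0.273%). Apart from the construction named, the cause was not tested.

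The replicate numbers did not pair the libraries, with correlations of same-numbered deviations from -0.053 to 0.066 over 366 windows. With the replicate block, 19 region windows were called for N2a against neurons (11.7%), 12 for N2a against NSC (8.74%), 4 for N2a against ES, 3 lower and 1 higher (7.38%), 3 for neurons against ES (1.91%), 6 for NSC against ES (3.55%) and 0 for neurons against NSC (0%).

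Of the named windows, 4 that were not called changed sign for N2a over neurons. At 505 to 500 kb the log2 change was 0.55 with TMM factors, 0.68 with DESeq2 size factors and 0.15 with reads within 1 Mb. At 90 to 85 kb it was -0.37 with the fewest reads. With 1 library left out it ran from -1.33 to 1.19 at 190 to 185 kb, from -0.031 to 0.60 at 95 to 90 kb and from -0.47 to 0.92 at 90 to 85 kb. The other named windows kept their sign under the alternatives run on 5 kb windows. Depth limits single windows, where few changes below 8-fold were called in simulated data of N2a against neurons.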

Other observations

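Adjacent fragments of the region often held equal counts, in 43.1% and 32.9% of adjacent listed pairs in N2a, 11.3% and 20.0% in neurons, 29.3% and 13.6% in NSC, and 15.01% and 27.7% in ES. The share was highest in the libraries with few reads in the region, and windows of the region with 0 reads numbered 5 and 3 in N2a, 0 and 0 in neurons, 3 and 0 in NSC, and 1 and 0 in ES.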
